A study of Mus musculus with 20 samples.

Results

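The comparison described here set 3 libraries of epidermal cells from p63 knockout (KO) mouse embryos against 3 libraries of dermal cells from heterozygous (Het) embryos, both at embryonic day 13 (E13). These are 6 of the 20 samples of the series and 6 of the 12 that have gene counts, and every gene symbol in the files entered the comparison. The genotype label of the epidermal libraries is {delta}Np63 -GFP KI-KO and that of the dermal libraries {delta}Np63 -GFP KI-Het, so all of the embryos carried a knock-in of green fluorescent protein (GFP) named for the delta-N form of p63, and the dermal libraries, titled Ctrl, are not wild type. Back skin was made into a cell suspension. Epidermal cells were then sorted by GFP. The sort for dermal cells used CD140a, which Pdgfra encodes. Het epidermis of the same age (3 libraries, sorted by GFP) is set beside the comparison to show which values the KO shares with epidermis that has p63. The test of KO against Het epidermis takes its spread from 9 epidermal libraries, which include 3 of Het epidermis from embryonic day 9 (E9), also sorted by GFP. Both epidermal groups are set against the same 3 dermal libraries, so their values over dermis are not independent of each other. No label states that replicates come from separate embryos, so the p-values cover just the spread among these samples, which may be technical.

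p63 is a transcription factor of the p53 family. Surface ectoderm begins as a simple epithelium, with keratins 8 and 18 and E-cadherin junctions. Under p63 it becomes the basal layer of a stratified epidermis, with keratins 5 and 14 and hemidesmosomes that fix it to a basement membrane. The dermis below is mesenchyme, whose fibroblasts make fibrillar collagens and carry factors such as Twist and Zeb that oppose epithelial junction genes in many settings. Which epithelial features remain without p63 is the question that the comparison addresses.

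Tissue and library preparation coincide: per the labels, ribosomal RNA was removed from the epidermal RNA, whereas oligo(dT) selected the dermal RNA. Genotype, tissue, sort and preparation therefore cannot be told apart in KO epidermis against dermis, while KO against Het epidermis shares sort and preparation. Counts assigned to genes ranged from 3373819 to 6796420 in the KO libraries and from 16931664 to 33386872 in the dermal libraries, and genes with at least 1 count from 11275 (KO replicate 3) to 16200 (KO replicate 2). Genes whose RNA has no poly(A) tail differed between the preparations, and not all one way. The ribosomal RNA precursor Rn45s took 2.90% to 4.14% of the gene counts in KO and 11.2% to 30.7% in dermis. Replication-dependent histone genes were high in both epidermal groups: 41 of 53 histone genes tested were higher and 0 lower in KO epidermis than in dermis, and 39 of 49 were higher in Het epidermis. Ribosomal protein genes, which are short, stood the other way, with 63 of 79 lower in KO than in dermis and 61 of 79 lower in Het epidermis. Genes called higher in KO than in dermis had a median genomic span of 51.6 kb and those called lower 18.3 kb. In KO against Het epidermis, which share the preparation, these medians of called genes also differed, at 108 kb and 48.6 kb. Tested genes with a known span, called or not, were also grouped by span. The shortest and longest quintiles had median log2 fold changes of -0.497 and 0.330 in KO epidermis over dermis. In Het epidermis over dermis they had -0.596 and 0.315, and in KO against Het epidermis 0.0734 and 0.0338. How much the preparation adds to any gene below was not tested. Values are CPM, a gene's count relative to its library's total, with totals scaled by TMM over the 9 E13 libraries, given in the order of replicates 1, 2 and 3. Changes are log2 fold changes ± standard error, from edgeR's quasi-likelihood test with Benjamini-Hochberg adjusted p over all genes tested. In bulk samples, fewer cells of a type and less RNA per cell cannot be told apart.

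The targeted gene and the sorted protein came first. Trp63 (chromosome 16, 25683763 to 25892088, GRCm38.p6) stood at 22.7, 24.2 and 20.4 CPM in KO epidermis, at 0.444, 0 and 2.06 CPM in dermis and at 536, 601 and 458 CPM in Het epidermis. The KO level was 4.21% of the Het level, yet above all 3 dermal libraries (log2 fold change 4.59 ± 1.12, adjusted p 0.0118). The counts do not separate the delta-N isoforms from the others. Pdgfra, the gene of the receptor used to sort dermal cells, stood at 43, 86.4 and 32.2 CPM in KO epidermis and at 972, 612 and 748 CPM in dermis (log2 fold change -3.89 ± 0.39, adjusted p 0.00017). Its libraries did not overlap, and KO replicate 2 was the highest of the KO libraries.

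The 5 marker genes went with the tissue labels. Krt8 and Krt18, the type II and type I keratin genes of simple epithelia, lie beside each other (chromosome 15, 101996711 to 102004342, and chromosome 15, 102028216 to 102032026). Krt8 reached 1040.3, 652 and 820.3 CPM in KO epidermis and 0.333, 0 and 0 CPM in dermis (log2 fold change 12.80 ± 0.65, adjusted p 8.94e-06). Epcam, a cell adhesion gene of epithelia (chromosome 17, 87635979 to 87651127), stood at 518, 419 and 456 CPM in KO and at 0.444, 0.735 and 2.84 CPM in dermis (log2 fold change 8.20 ± 0.61, adjusted p 3.87e-05). Every KO library lay far above every dermal library for both genes. Cdh1, the E-cadherin gene (chromosome 8, 106603350 to 106670247), stood at 840.5, 687 and 662 CPM in KO and at 0.499, 0 and 0.0343 CPM in dermis (log2 fold change 11.92 ± 0.61, adjusted p 8.94e-06). Col1a1, a fibrillar collagen gene, was at 137, 455 and 86 CPM in KO against 9863, 7142 and 7506 CPM in dermis (log2 fold change -5.21 ± 0.65, adjusted p 0.000489). KO replicate 2 held more Col1a1 than the other KO libraries, and still far less than any dermal library.

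**Figure D1:**
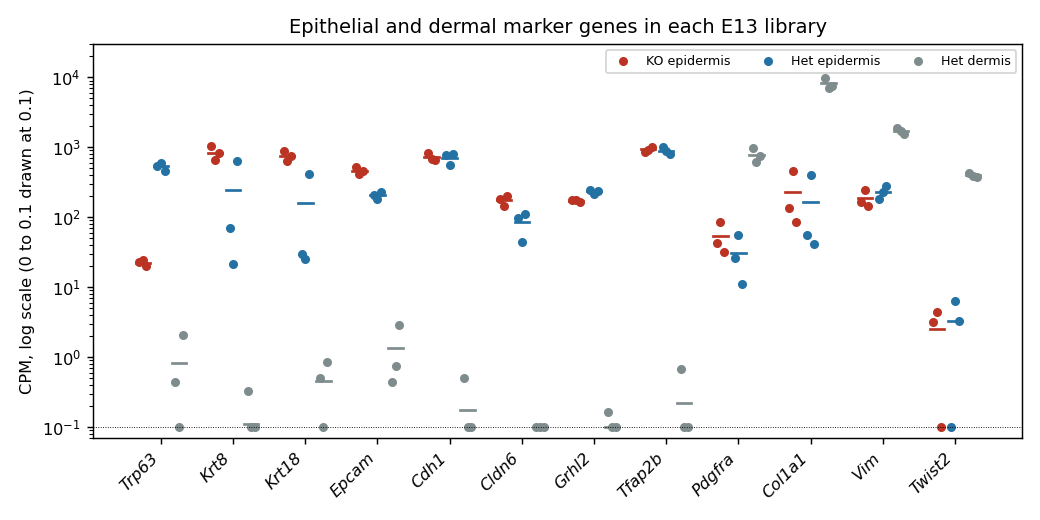
Levels of 12 marker genes in each of the 9 E13 libraries (y axis, CPM on a log scale, with values from 0 to 0.1 drawn at 0.1), with points for libraries and short lines for group means. Krt8, Krt18, Epcam, Cdh1, Cldn6, Grhl2 and Tfap2b are high in every KO library and near 0 in dermis, and Pdgfra, Col1a1, Vim and Twist2 are higher in each of the 3 dermal libraries than in any epidermal library.

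Across the genome, 4674 of 13140 genes tested were called at an adjusted p under 0.05 (35.6%), 2199 higher (16.7% of the genes tested) and 2475 lower (18.8%) in KO epidermis. At least 4-fold differences numbered 922 higher and 963 lower. The median log2 fold change of all genes tested was -0.11. With raw library totals in place of TMM, an alternative chosen after seeing the data, the median shifted by 0.49 and the calls became 3422 higher and 1319 lower, 72.2% higher against 47.1%. Counts of members in each list are to be read against the 16.7% and 18.8% of all genes. A gene near 0 in dermis passed the filter on low counts only through the KO libraries. Its being higher was then largely fixed in advance. A gene near 0 in KO passed only through the dermal libraries, and its being lower was likewise largely fixed. Members low in both groups left the number tested. The counts higher in the simple keratin, junction, regulator, surface, desmosome and suprabasal lists therefore only describe the genes tested. So do the counts lower in the erythroid and the macrophage and leukocyte lists. Besides the genes that the naming rule gives, others of the lists are named to complete a pathway and were chosen after their values were seen. No source used here gives the strand setting of the counting, so reads of overlapping genes cannot be told apart. In Het epidermis against the same dermis, 16.5% of 12975 genes were higher and 18.2% lower. KO against Het epidermis gave 0.835% higher and 1.36% lower of 13052 genes.

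**Figure D2:**
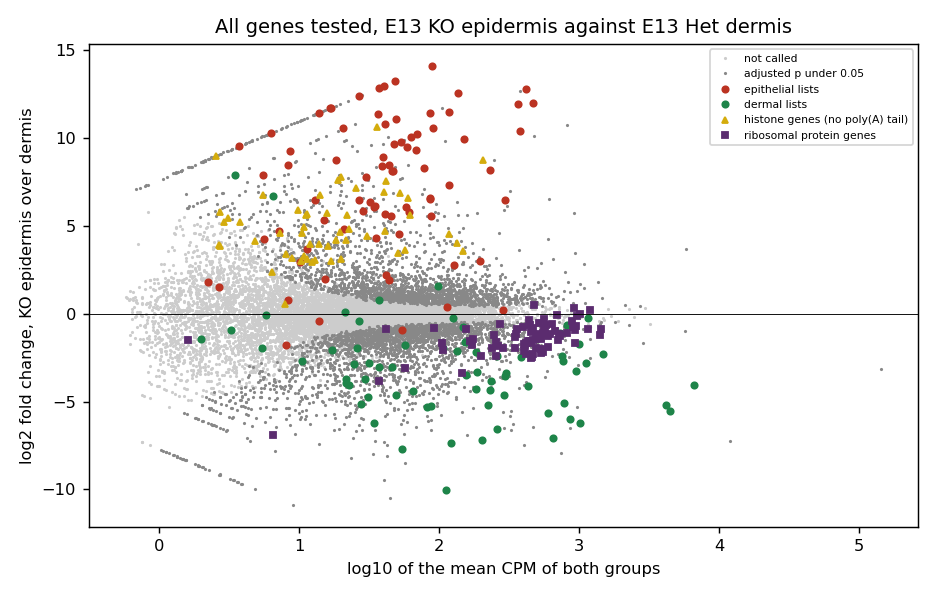
Log2 fold change of KO epidermis over dermis (y axis) against the log10 mean CPM of both groups (x axis) for the 13140 genes tested, with members of epithelial lists (keratins, junctions, regulators, surface, desmosome), dermal lists (matrix, state, factors), histone and ribosomal protein genes marked. Most epithelial genes lie far above 0 and most dermal genes below it, most histone genes lie above 0 and most ribosomal protein genes below it; fitted values of genes at 0 counts in a group depend on the prior count.

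Keratins of simple epithelia were all higher in KO epidermis than in dermis where they could be tested (4 of 4 tested, of 6 listed, median log2 fold change 10.20). Krt18, the partner of Krt8, stood at 893, 632 and 739 CPM in KO and at 0.499, 0 and 0.856 CPM in dermis (log2 fold change 10.37 ± 0.57, adjusted p 1.03e-05). Krt7, another type II keratin gene of simple epithelia, stood at 133, 80.7 and 162 CPM against 0.333, 0 and 0 CPM, and Krt19, a type I keratin gene of simple and ductal epithelia, at 84.7, 80.7 and 37.9 CPM against 1.05, 0 and 1.61 CPM (10.04 ± 0.76, adjusted p 4.19e-05, and 6.07 ± 0.86, adjusted p 0.000963). In Het epidermis Krt8 was uneven, at 69.6, 21.4 and 633 CPM, and Krt18 likewise at 30.3, 25.6 and 416 CPM. Het replicates 1 and 2 lay far below every KO library for both genes, and Het replicate 3, far above the other Het libraries, lay below them as well. With that spread neither gene was called between KO and Het epidermis (adjusted p 0.665 and 0.519). Krt20 and Krt23 were too low to test.

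Adhesion and polarity genes were read next, and their count higher only describes the genes tested. Of 21 tested (22 listed), 20 were higher in KO epidermis than in dermis and 0 lower, with a median of 8.47 (8.98 with the 7 genes of at most 3 counts in dermis set to their bound or count ratio), under every alternative tried at least 20. The genes at 0 counts in all dermal libraries give only a bound, set at 3 counts over the group. Cldn6, a claudin gene of embryonic epithelia, stood at 183, 146 and 201 CPM in KO, at least 3397-fold higher than in dermis (adjusted p 5.88e-06). Ocln, the occludin gene, stood at 112, 97 and 83.2 CPM, at least 1970.1-fold higher (adjusted p 8.94e-06). The genes of these sealing proteins of the tight junction had no read in any of the 3 dermal libraries. Cldn3 (105, 54.8 and 81.4 CPM) and Marveld2, the tricellulin gene (65.8, 58.1 and 35.5 CPM), were at least 1561-fold and at least 1112-fold higher. Cldn4, another claudin gene, stood at 294, 162 and 253 CPM in KO and at 0.222, 0 and 0 CPM in dermis (log2 fold change 11.50 ± 0.63, adjusted p 1.03e-05).

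Between KO and Het epidermis 20 of 22 junction genes tested were not called, with a median log2 fold change of 0.74 and 17 values above 0. Some that were not called had groups that did not overlap, such as Cldn6 and Ocln. Epcam was higher in KO than in Het epidermis, where it stood at 211, 184 and 226 CPM (log2 fold change 1.19 ± 0.14, adjusted p 0.00031), with every KO library above every Het library. Cdh1 stood at 775, 554 and 799 CPM in Het epidermis, and its groups overlapped (log2 fold change 0.07 ± 0.15, adjusted p 0.944). Cldn7 had 113, 77.7 and 127 CPM in KO and 8.38, 7.16 and 44.8 CPM in Het epidermis, and did not pass (log2 fold change 2.42 ± 0.64, adjusted p 0.109). Epcam was the higher and Pvrl1 the lower of the 2 that were called. Pvrl1, the nectin-1 gene, stood at 69.3, 67 and 73.2 CPM in KO, 548, 338 and 288 CPM in Het epidermis and 17.9, 14.9 and 20.4 CPM in dermis (log2 fold change -2.46 ± 0.23, adjusted p 3e-05). It remained above dermis by 1.91 on the log2 scale (adjusted p 0.000328). Cldn1, the claudin gene of the later epidermal barrier, was the member not called (7.17, 3.9 and 0 CPM in KO, 12.4, 11.2 and 13.4 CPM in dermis, log2 fold change -1.76 ± 1.07, adjusted p 0.233).

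Most promoters of these genes hold E-boxes of the kind that Snail and Zeb repressors bind in the E-cadherin gene. The motif searched was CAGGTG on either strand (CACCTG on the strand printed when it lies on the other), a form of the general E-box CANNTG, in windows of 250 bases before to 50 bases after each RefSeq start (build GRCm38.p6). The following 5 windows belong to simple-epithelium genes near 0 in dermis and are shown because each holds the motif, in capitals. A match describes letters and shows no binding.
Epcam (chr17:87635729-87636028, + strand): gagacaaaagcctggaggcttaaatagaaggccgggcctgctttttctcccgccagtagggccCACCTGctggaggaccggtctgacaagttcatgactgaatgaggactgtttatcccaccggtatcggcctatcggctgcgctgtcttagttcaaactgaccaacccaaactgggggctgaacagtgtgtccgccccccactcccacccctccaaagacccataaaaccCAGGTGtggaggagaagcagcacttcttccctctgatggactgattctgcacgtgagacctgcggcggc
Krt8 (chr15:102004293-102004592, - strand): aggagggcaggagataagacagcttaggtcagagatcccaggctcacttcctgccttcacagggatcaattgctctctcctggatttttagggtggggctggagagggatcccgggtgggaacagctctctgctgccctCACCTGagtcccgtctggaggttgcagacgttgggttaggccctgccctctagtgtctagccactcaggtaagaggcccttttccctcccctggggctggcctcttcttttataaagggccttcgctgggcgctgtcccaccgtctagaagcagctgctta
Krt18 (chr15:102027966-102028265, + strand): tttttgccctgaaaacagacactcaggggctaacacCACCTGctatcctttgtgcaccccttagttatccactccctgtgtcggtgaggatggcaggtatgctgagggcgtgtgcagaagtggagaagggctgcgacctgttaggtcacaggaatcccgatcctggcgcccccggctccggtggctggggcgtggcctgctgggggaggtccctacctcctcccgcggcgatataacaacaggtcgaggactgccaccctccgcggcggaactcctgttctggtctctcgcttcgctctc
Cldn6 (chr17:23679115-23679414, + strand): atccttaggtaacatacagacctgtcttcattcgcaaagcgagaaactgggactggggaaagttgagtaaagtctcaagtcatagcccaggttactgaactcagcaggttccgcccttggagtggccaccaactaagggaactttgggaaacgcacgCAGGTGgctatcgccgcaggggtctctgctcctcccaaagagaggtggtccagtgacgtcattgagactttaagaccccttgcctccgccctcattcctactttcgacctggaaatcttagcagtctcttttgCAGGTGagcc
Cldn4 (chr5:134946885-134947184, - strand): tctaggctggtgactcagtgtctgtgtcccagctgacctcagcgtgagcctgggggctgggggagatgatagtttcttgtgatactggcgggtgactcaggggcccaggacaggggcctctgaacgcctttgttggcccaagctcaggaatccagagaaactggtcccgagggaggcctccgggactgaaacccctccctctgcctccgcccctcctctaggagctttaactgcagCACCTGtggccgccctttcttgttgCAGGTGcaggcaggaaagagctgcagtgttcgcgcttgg
Epcam, Cldn6 and Cldn4 hold 2 matches each and Krt8 and Krt18 1 each. In Epcam the first bases of the matches lie 187 and 19 bases before the start site. In Cldn4 1 match lies 14 bases before the start and the other at base 12 after it.

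Among tested genes, 12 of the 14 junction genes with a promoter in the table held the motif (85.7%), against 2010 of all 9695 tested genes with one (20.7%). With matches before the start site only, the shares were 71.4% and 18.2%. The motif was in 3 of 3 simple keratin genes and in 7 of 12 epithelial surface genes (58.3%). It was in 3 of 11 epithelial regulators (27.3%), in 2 of 17 dermal matrix genes (11.8%) and in 4 of 17 dermal factors (23.5%). The motif AACNNGTT, of the Grainyhead kind, was in 1 of 14 junction promoters (7.14%) against 3.95% of tested genes. These shares are descriptions, and no test was made of them, since the lists were drawn up with the expression results known.

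The listed transcription factors of dermal mesenchyme and epithelial-mesenchymal transition include 4 repressors known to bind this motif. Zeb2, the gene of a zinc finger repressor of E-cadherin, stood at 18.1, 26.5 and 9.27 CPM in KO epidermis and at 392, 328 and 331 CPM in dermis (log2 fold change -4.31 ± 0.36, adjusted p 5.94e-05). Snai1, the Snail gene, stood at 0.897, 1.56 and 0 CPM against 73.5, 67.4 and 62.1 CPM (log2 fold change -6.22 ± 0.59, adjusted p 7.45e-05). Zeb1 (which overlaps another annotated gene) was at 0.897, 15.6 and 0 CPM against 153, 109 and 113 CPM (log2 fold change -4.42 ± 1.02, adjusted p 0.0103), a call lost without KO replicate 1 or dermis replicate 1 (adjusted p up to 0.0677). For all 3 genes every KO library lay below every dermal library. Snai2, the Slug gene, went another way: it stood at 1.94, 11 and 12.6 CPM in KO epidermis, at 82.9, 73.5 and 61.1 CPM in Het epidermis and at 76.8, 61.2 and 58.9 CPM in dermis. Het epidermis and dermis overlapped for Snai2, and KO was lower than both (-3.03 ± 0.57, adjusted p 0.00405 over dermis, and -3.07 ± 0.59, adjusted p 0.0143 over Het epidermis). Zeb2 overlaps another annotated gene. Whether any of the 4 acts on the genes that hold the motif was not tested.

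Most genes of epithelial transcription and splicing factors were higher in KO epidermis than in dermis. Of 23 tested (26 listed), 18 were higher and 0 lower, with a median of 7.89 (7.26 with 7 genes at their bound or count ratio). Grhl2, a Grainyhead-like gene that drives epithelial junction genes, stood at 175, 174 and 168 CPM in KO, with 3 counts in dermis in all (3429-fold, 95% counting interval 1172 to 16638, adjusted p 5.88e-06). Tfap2b, an AP-2 gene of surface ectoderm, stood at 868, 926 and 1016 CPM in KO against 0.665, 0 and 0 CPM in dermis (log2 fold change 12.01 ± 0.76, adjusted p 2.01e-05). In Het epidermis Grhl2 stood at 243, 218 and 239 CPM and Tfap2b at 1007, 875 and 793 CPM, and neither was called between KO and Het (adjusted p 0.204 and 0.914). Tfap2a, of the same family, stood at 204, 187 and 149 CPM against 0.333, 0 and 0 CPM, and Tfap2c at 109, 104 and 85 CPM against 2.27, 5.72 and 4.45 CPM.

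The other regulators divided by their Het level. Esrp1, an epithelial splicing factor gene, stood at 322, 283 and 291 CPM in KO, 0.111, 1.06 and 0 CPM in dermis and 195, 253 and 332 CPM in Het epidermis (9.96 ± 0.79, adjusted p 5.26e-05 over dermis). Gata3, a zinc finger factor gene of skin and hair, stood at 111, 100.3 and 81.9 CPM in KO with 2 counts in dermis (2979.6-fold, 95% counting interval 824 to 24622, adjusted p 5.88e-06), and Elf3, an ETS factor gene of epithelia, at 57.1, 34.2 and 31.7 CPM with 1 count in dermis. Satb1, a chromatin organiser gene linked to p63, stood at 355, 379 and 368 CPM in KO against 9.65, 3.84 and 6.06 CPM in dermis (log2 fold change 5.75 ± 0.31, adjusted p 5.88e-06), close to its Het values of 465, 449 and 358 CPM. Grhl3, the Grainyhead-like gene of barrier formation, was lower than in Het epidermis (98.8, 75.3 and 60.3 CPM against 277, 109 and 247 CPM, log2 fold change -1.40 ± 0.32, adjusted p 0.0371), a call lost without any 1 of 6 of the 9 epidermal libraries (adjusted p up to 0.167). Bnc1, the basonuclin gene of basal keratinocytes, stood at 11.9, 7.92 and 17 CPM in KO and 12.8, 16 and 17 CPM in dermis, which overlapped (log2 fold change -0.40 ± 0.46, adjusted p 0.537), and at 55, 77.3 and 143 CPM in Het epidermis (log2 fold change -2.89 ± 0.43, adjusted p 0.00198 in KO against Het). Klf4 (KO 61.6, 51.4 and 0.773 CPM), Sox9, Hr and Dlx5 were the other tested members not called over dermis, and Gata3 overlaps other annotated genes.

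Epithelial surface genes followed the junction genes, with 16 of 19 tested (21 listed) higher in KO epidermis than in dermis and 0 lower (median 7.33). Spint2, the gene of a protease inhibitor of epithelia, stood at 199.8, 154 and 159.9 CPM against 3.99, 3.59 and 2.88 CPM (log2 fold change 5.56 ± 0.24, adjusted p 5.88e-06). St14, the matriptase gene that the inhibitor acts on, stood at 97.7, 86.2 and 61.3 CPM with 2 counts in dermis (2532-fold, 95% counting interval 699.8 to 20927, adjusted p 8.94e-06). Ap1m2, a subunit gene of the epithelial sorting adaptor, stood at 56.8, 48.7 and 117 CPM, at least 1313-fold higher than in dermis. Erbb3, a neuregulin receptor gene, stood at 248, 209 and 247 CPM against 0.998, 3.84 and 0 CPM (log2 fold change 7.33 ± 1.02, adjusted p 0.000893). Prom1, the CD133 gene, was not called over dermis (117, 134 and 145 CPM against 72.8, 111 and 104 CPM), and it was higher in KO than in Het epidermis, where it stood at 24.9, 44.1 and 34.2 CPM (log2 fold change 1.96 ± 0.27, adjusted p 0.00106).

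Desmosome genes were also higher in KO epidermis than in dermis, 9 of 10 tested (12 listed) and 0 lower, with a median of 6.29. In Het epidermis against dermis all 12 were tested and 12 were higher. Dsp, the desmoplakin gene of the plaque, stood at 696, 589 and 476 CPM in KO and at 7.76, 1.88 and 8.63 CPM in dermis (log2 fold change 6.50 ± 0.52, adjusted p 5.26e-05). Het epidermis had 2111, 1669.8 and 2243 CPM, so the KO level was 29.2% of the Het level (log2 fold change -1.75 ± 0.15, adjusted p 1.53e-05). Dsg2, the desmoglein gene of simple epithelia, stood at 301, 225 and 287 CPM in KO with 2 counts in dermis (7909-fold, 95% counting interval 2188 to 65324, adjusted p 5.43e-06), and its Het libraries (320.0, 225 and 397 CPM) overlapped those of the KO. Dsc3, a desmocollin gene, stood at 57.4, 15.8 and 0 CPM in KO and 45.2, 56.5 and 29.2 CPM in Het epidermis, which overlapped (log2 fold change -0.82 ± 1.35, adjusted p 0.923). Dsg3 and Pkp1 were too low in KO to be tested over dermis (4.18, 1.82 and 0 CPM and 6.43, 2.47 and 0 CPM), against 83.8, 31.7 and 36.1 CPM and 211, 91.2 and 101 CPM in Het epidermis. Both were lower in KO than in Het (log2 fold change -4.57 ± 0.98, adjusted p 0.0376, and -5.39 ± 1.04, adjusted p 0.0358), and each call was lost without any 1 of several libraries: 4 for Dsg3 (adjusted p up to 0.166) and 6 for Pkp1 (up to 0.188). Perp, a tetraspan gene of the same junctions, stood at 51.2, 32.1 and 5.15 CPM in KO and 0.388, 1.88 and 0 CPM in dermis (log2 fold change 5.32 ± 1.44, adjusted p 0.0205), lost without KO replicate 1 or dermis replicate 1 (adjusted p up to 0.0983). In Het epidermis Perp stood at 409.5, 397 and 337 CPM, above every KO library. It was not called between KO and Het (log2 fold change -3.64 ± 0.75, adjusted p 0.0673).

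**Figure D3:**
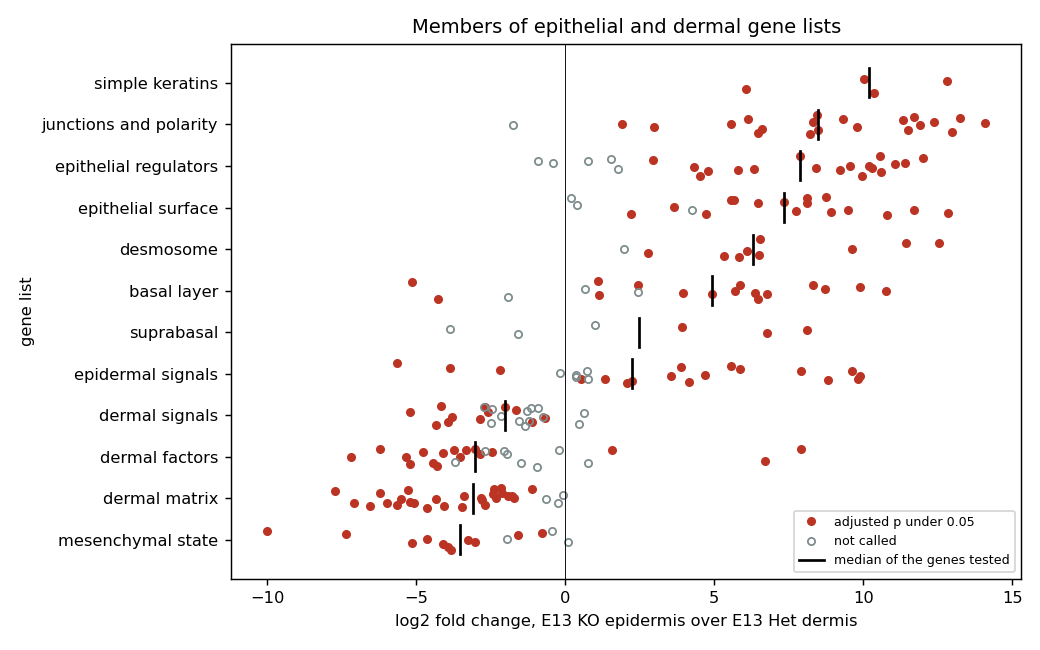
Log2 fold change of KO epidermis over dermis (x axis) for each tested member of 12 gene lists (y axis), with called genes filled and a line at the median of the genes tested. Most keratin, junction, regulator, surface and desmosome genes lie far above 0, with Cldn1, Klf4 and Bnc1 below it, basal, suprabasal and epidermal signal genes spread across it, and the dermal lists lie mostly below; fitted values of genes at 0 counts in a group depend on the prior count.

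Basal-layer genes were mixed. Of 19 tested (20 listed), 14 were higher in KO epidermis than in dermis, 2 lower and 3 not called (median 4.91). In Het epidermis against dermis 18 of 20 were higher and 2 lower. The 2 lower genes were Frem1 and Col7a1 in both comparisons. Between KO and Het epidermis, 9 of 20 were lower and 0 higher. The basal keratin gene Krt5 stood at 43.6, 18.8 and 39.4 CPM in KO, 4.21, 2.21 and 0 CPM in dermis and 1332, 1014 and 1367 CPM in Het epidermis. Its KO level was 2.74% of the Het level (log2 fold change -5.17 ± 0.33, adjusted p 9.36e-06), and its call over dermis (log2 fold change 3.95 ± 1.23, adjusted p 0.0357) was lost without KO replicate 1 or 3 or dermis replicate 1 or 2 (adjusted p up to 0.143). Krt14, its partner, stood at 36.8, 6.37 and 1.03 CPM in KO and 1.94, 3.76 and 2.06 CPM in dermis, which overlapped, and did not pass (log2 fold change 2.44 ± 1.11, adjusted p 0.119). In Het epidermis Krt14 stood at 974, 806 and 529 CPM, above every KO library. It was not called between KO and Het (log2 fold change -5.64 ± 1.32, adjusted p 0.121). KO replicate 1 held most of the Krt14 and Krt17 counts.

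Hemidesmosome genes ranged from the dermal level to 30.1-fold above it (Itgb4). Col17a1, the gene of collagen XVII, stood at 0, 1.3 and 0 CPM in KO, 3.77, 0 and 1.47 CPM in dermis and 299.8, 318 and 209 CPM in Het epidermis. KO epidermis and dermis overlapped (log2 fold change -1.90 ± 2.10, adjusted p 0.52), while KO was far below Het (log2 fold change -8.94 ± 1.08, adjusted p 0.00416). Itgb4, the integrin beta-4 gene, stood at 74.9, 55.6 and 67.7 CPM in KO and 1.66, 0 and 4.25 CPM in dermis (log2 fold change 4.91 ± 0.95, adjusted p 0.00455), with 454, 365 and 277 CPM in Het epidermis (log2 fold change -2.44 ± 0.22, adjusted p 2.26e-05 in KO against Het). Its partner Itga6 was less changed, at 173, 145 and 107 CPM, 62.6, 67.8 and 55.5 CPM and 359.9, 258 and 224 CPM in the same order (1.13 ± 0.22, adjusted p 0.00391 over dermis). Dst, the dystonin gene, stood at 187, 286 and 178 CPM in KO and 171, 93.7 and 132 CPM in dermis (log2 fold change 0.66 ± 0.26, adjusted p 0.0727), against 989.9, 1276 and 1023 CPM in Het epidermis (log2 fold change -2.31 ± 0.19, adjusted p 1.02e-05). Dst and Itgb4 overlap another annotated gene. Fermt1, the kindlin-1 gene, is on the basal-layer list but is not a hemidesmosome gene. It stood at 28.4, 27.7 and 22.9 CPM in KO with 1 count in dermis (1601-fold, 95% counting interval 286 to 63374), and was 15.9% of the Het level (log2 fold change -2.63 ± 0.21, adjusted p 7.48e-06).

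Basement membrane genes of the early ectoderm differed among themselves. Fras1, the gene of the Fraser syndrome protein that anchors embryonic epithelium, stood at 1806, 1565 and 2017 CPM in KO and 46.1, 22.2 and 30.4 CPM in dermis (log2 fold change 5.71 ± 0.28, adjusted p 5.88e-06). Frem2, its partner on the epithelial side, stood at 1832, 1415 and 1651 CPM in KO and 1.16, 1.96 and 0.0343 CPM in dermis (log2 fold change 10.75 ± 0.85, adjusted p 5.01e-05). Het epidermis had 1829, 1894 and 2410.5 CPM for Fras1 and 1042, 919.5 and 1356 CPM for Frem2, and neither was called between KO and Het (adjusted p 0.738 and 0.0582). Frem1, the member of this complex that mesenchyme makes, stood the other way, at 17, 23.9 and 11.3 CPM in KO and 405, 294 and 291 CPM in dermis (log2 fold change -4.27 ± 0.29, adjusted p 1.63e-05). Het epidermis was also low for Frem1, at 18.9, 36.7 and 24.9 CPM. Lama5, a laminin chain gene, stood at 525, 400.4 and 551 CPM against 1.89, 1.88 and 0 CPM (log2 fold change 8.72 ± 0.89, adjusted p 0.000175), and was somewhat lower than in Het epidermis (log2 fold change -0.80 ± 0.14, adjusted p 0.0052). Col7a1, the anchoring fibril collagen gene, which overlaps another annotated gene, was at 9.27, 15.5 and 12.9 CPM in KO, 140.0, 93.4 and 70.8 CPM in Het epidermis and 517, 410.0 and 335 CPM in dermis. It was lower in KO than in either (-5.12 ± 0.26, adjusted p 5.88e-06 over dermis, and -2.99 ± 0.41, adjusted p 0.00108 over Het epidermis).

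Suprabasal and periderm genes were mostly too low to test (6 of the 17 listed genes present in the files, 3 higher and 0 lower, median 2.46). Sfn, the stratifin gene, stood at 139, 95 and 38.6 CPM in KO and 0.499, 0 and 0.343 CPM in dermis (log2 fold change 8.11 ± 0.78, adjusted p 0.00013). Krt4, a keratin gene of periderm and mucosa, stood at 8.67, 2.34 and 11.1 CPM against 0.166, 0 and 0 CPM (adjusted p 0.0141), lost without KO replicate 1 or dermis replicate 2 (adjusted p up to 0.0556). Tgm1, the transglutaminase gene of the cornified envelope, stood at 44.8, 15.1 and 26.5 CPM against 1.89, 0 and 3.36 CPM (log2 fold change 3.93 ± 1.10, adjusted p 0.024), lost without KO replicate 1 or 3 or dermis replicate 1 (adjusted p up to 0.0993). Krt1 and Krt10, of the first suprabasal layer, had 11 and 6 counts over the KO libraries and were not called (adjusted p 0.59 and 0.099). DESeq2 and limma voom called Krt10 lower (adjusted p 0.0394 and 0.0154).

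Of the genes widely linked to p63, 16 of 23 tested (25 listed, 10 of them also in the basal or desmosome lists) were higher in KO epidermis than in dermis, 2 lower and 5 not called (median 3.95). The number higher was 11 with no filter on low counts. In KO against Het epidermis 14 of 24 were lower and 0 higher. Cdh3, the P-cadherin gene, stood at 308, 285 and 454 CPM in KO, 50.6, 42.2 and 32.9 CPM in dermis and 494, 499 and 554 CPM in Het epidermis (2.98 ± 0.23, adjusted p 2.65e-05 over dermis). Ripk4, a kinase gene of keratinocyte differentiation, stood at 49.5, 37.5 and 42 CPM in KO with 2 counts in dermis (1274-fold, 95% counting interval 352 to 10539.9, adjusted p 3.03e-05), and was lower than in Het epidermis (log2 fold change -1.42 ± 0.24, adjusted p 0.00416). The members lower than dermis were Edaradd, described below, and Igfbp3, the gene of an insulin-like growth factor binding protein, at 10.8, 11.4 and 5.92 CPM in KO and 47.1, 20.0 and 131 CPM in dermis (log2 fold change -2.86 ± 0.66, adjusted p 0.0107). The Igfbp3 call was lost without KO replicate 1 or 3 (adjusted p up to 0.0786).

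Signals from the epidermal side were mixed. Of 23 tested (25 listed), 15 were higher in KO epidermis than in dermis, 3 lower and 5 not called (median 2.24). Between KO and Het epidermis 13 of 25 were lower and 1 higher. Wnt6, a canonical Wnt ligand gene of surface ectoderm, stood at 247, 153 and 278 CPM in KO, 12.9, 10.8 and 12.4 CPM in dermis and 167, 145 and 231 CPM in Het epidermis (4.15 ± 0.25, adjusted p 8.94e-06 over dermis). Wnt3 stood at 236, 171 and 258 CPM, 0.721, 0 and 0 CPM and 174, 186 and 181 CPM in the same order (9.81 ± 0.80, adjusted p 5.86e-05). Neither Wnt gene was called between KO and Het epidermis (adjusted p 0.649 and 0.828), and Wnt3 overlaps another annotated gene. Wnt10b and Wnt3a, in contrast, stood at 25.9, 8.83 and 12.1 CPM and 0.747, 0.13 and 0 CPM in KO against 186, 119 and 128 CPM and 19.8, 28.6 and 27 CPM in Het epidermis (log2 fold change -3.18 ± 0.45, adjusted p 0.00149, and -6.22 ± 1.30, adjusted p 0.0276). The Wnt3a call was lost without Het replicate 2 or 3 or KO replicate 2 (adjusted p up to 0.165).

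Ligands of the platelet-derived growth factor pathway, whose receptors are dermal, were present in KO epidermis. Pdgfc stood at 208, 206 and 226 CPM in KO and 5.99, 2.29 and 4.56 CPM in dermis (log2 fold change 5.56 ± 0.32, adjusted p 8.6e-06). Pdgfa stood at 87.7, 81.8 and 77 CPM in KO, 2.22, 4.65 and 2.26 CPM in dermis and 226, 177 and 124 CPM in Het epidermis (4.70 ± 0.38, adjusted p 3.48e-05 over dermis). Pdgfa was lower in KO than in Het (log2 fold change -1.07 ± 0.25, adjusted p 0.0381), a call lost without any 1 of 6 of the 9 epidermal libraries (adjusted p up to 0.143). Sostdc1, a BMP and Wnt antagonist gene, stood at 220.1, 155 and 203 CPM in KO, 18.4, 15.8 and 13.4 CPM in dermis and 109.7, 98.3 and 116 CPM in Het epidermis (3.54 ± 0.21, adjusted p 8.94e-06 over dermis), and was the member higher than in Het. Every KO library was above every library of both other groups for Sostdc1.

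Notch1 stood at 148, 93.1 and 155 CPM in KO, 124, 100.4 and 71.5 CPM in dermis and 823, 547 and 512 CPM in Het epidermis. KO and dermis overlapped (log2 fold change 0.35 ± 0.25, adjusted p 0.304), and KO was lower than Het (log2 fold change -2.22 ± 0.23, adjusted p 6.8e-05). Its ligand genes Jag1 and Jag2 were lower than in Het epidermis (log2 fold change -2.92 ± 0.48, adjusted p 0.0099, and -2.88 ± 0.37, adjusted p 0.00135), Jag1 not without KO replicate 2 (adjusted p 0.0685), and Jag1 was not called over dermis (adjusted p 0.389). Jag2 remained above dermis, at 21.2, 22.1 and 61.3 CPM in KO against 2.44, 2.29 and 1.88 CPM (log2 fold change 3.89 ± 0.54, adjusted p 0.000622). Fgfr2, the receptor gene for dermal FGF ligands, stood at 183, 198 and 169 CPM in KO, 134, 119.5 and 107 CPM in dermis and 807, 1077 and 914 CPM in Het epidermis. It remained slightly above dermis (log2 fold change 0.55 ± 0.16, adjusted p 0.0259), lost without KO replicate 1 or 2 or dermis replicate 2 or 3 (adjusted p up to 0.113), and was lower than in Het (log2 fold change -2.32 ± 0.16, adjusted p 2.7e-06). Egfr, the epidermal growth factor receptor gene, stood at 64.8, 70.7 and 105 CPM, 37.5, 24.7 and 28.3 CPM and 379, 386 and 352 CPM in the same order (1.34 ± 0.25, adjusted p 0.00325 over dermis, and -2.20 ± 0.22, adjusted p 6.8e-05 over Het epidermis). Wnt4 stood at 108, 98.8 and 153 CPM in KO and 96.9, 108 and 60.4 CPM in dermis, which overlapped (log2 fold change 0.37 ± 0.25, adjusted p 0.294). Its fall from the Het level (log2 fold change -1.12 ± 0.24, adjusted p 0.0232) was lost without Het replicate 1 or KO replicate 1 or 2 (adjusted p up to 0.108).

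Some epidermal genes fell below the dermal level. Edaradd, the adaptor gene of the ectodysplasin receptor, stood at 0.149, 0.909 and 0 CPM in KO, 18.4, 15.8 and 24.5 CPM in dermis and 107, 66.4 and 58.2 CPM in Het epidermis. It was lower in KO than in dermis (-5.63 ± 0.96, adjusted p 0.00181) and than in Het epidermis (-7.45 ± 0.76, adjusted p 6.8e-05), with no overlap of libraries in either. Edar, the receptor gene itself, remained at 24.1, 22.2 and 42.2 CPM in KO with 3 counts in dermis (538-fold, 95% counting interval 183 to 2618, adjusted p 0.000193). Fzd10, a Frizzled receptor gene, stood at 9.41, 6.37 and 1.8 CPM in KO, 26.8, 29.3 and 22.3 CPM in dermis and 407, 333 and 267 CPM in Het epidermis. It was also below dermis (log2 fold change -2.19 ± 0.58, adjusted p 0.0163), a call lost without dermis replicate 1 or 2 (adjusted p up to 0.0632), and below Het (log2 fold change -5.75 ± 0.52, adjusted p 0.000246). Kitl, the stem cell factor gene that supports melanoblasts, stood at 3.74, 11.8 and 3.61 CPM in KO, 104, 76.2 and 97.7 CPM in dermis and 45, 77.6 and 65.4 CPM in Het epidermis. The KO libraries lay below all others for Kitl (-3.86 ± 0.48, adjusted p 0.000396 over dermis, and -3.23 ± 0.51, adjusted p 0.00314 over Het epidermis). Fbln2, a fibulin gene of matrix that both tissues make, behaved likewise, at 57.1, 49.8 and 50.7 CPM, 281, 180.5 and 193 CPM and 295, 313 and 455 CPM (-2.11 ± 0.20, adjusted p 6.23e-05, and -2.73 ± 0.21, adjusted p 4.66e-06).

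**Figure D4:**
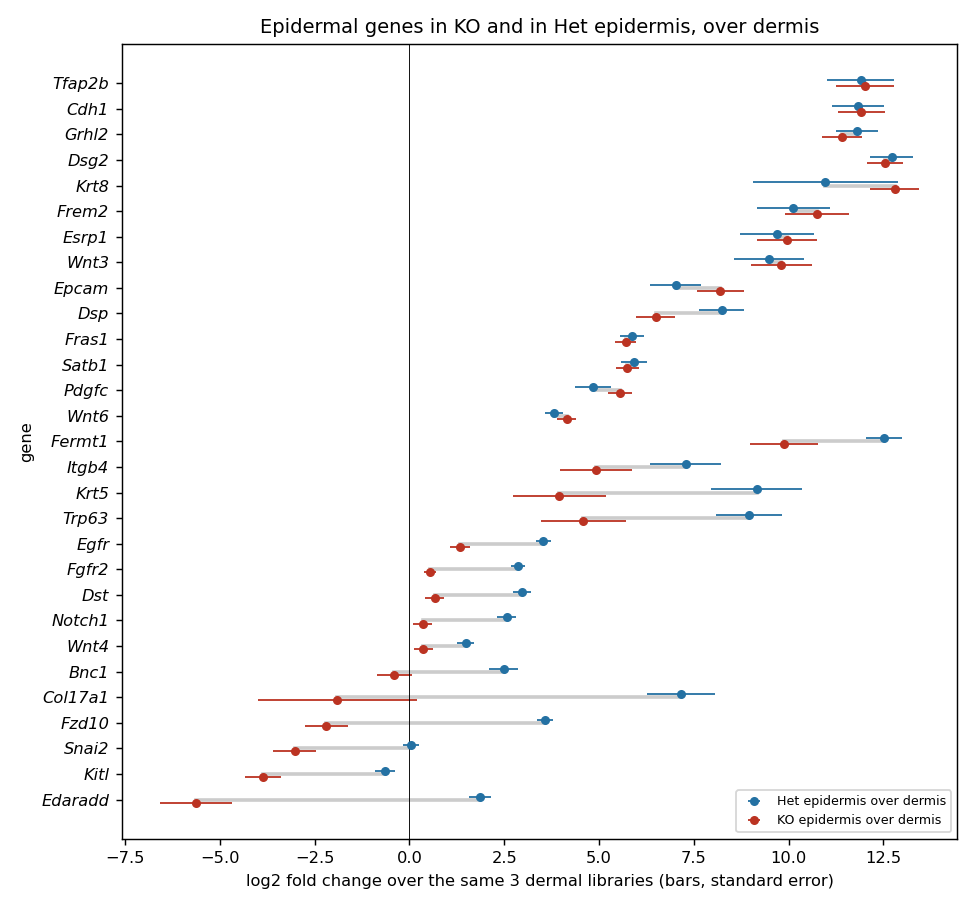
Log2 fold change over the same 3 dermal libraries (x axis, bars for standard errors) of 29 genes (y axis) in KO epidermis and in Het epidermis, joined by grey lines. Tfap2b, Cdh1, Grhl2, Fras1 and Satb1 lie at like values in both, Notch1, Wnt4, Bnc1 and Dst lie near 0 in KO only, and Edaradd, Kitl, Snai2 and Fzd10 lie below 0 in KO.

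The genes with the largest fitted difference over dermis were led by the junction genes above, and 9 of the 12 had 0 counts in dermis, where the fitted value depends on the prior count. The others not yet described were Myh14, Gabrp, Cldn8, Kcnh7 and Upk3bl. Gabrp, the gene of the GABA-A receptor pi subunit, which epithelia make, stood at 960.5, 469.5 and 848 CPM in KO, 0.333, 0 and 0 CPM in dermis and 309, 187 and 1438 CPM in Het epidermis (12.65 ± 0.71, adjusted p 1.11e-05 over dermis). Cldn8, a claudin gene of tight epithelia, stood at 59.3, 45.3 and 64.4 CPM in KO, at least 1080.5-fold above dermis, and was higher than in Het epidermis (15.4, 9.23 and 17 CPM, log2 fold change 2.05 ± 0.37, adjusted p 0.00745). Upk3bl, a uroplakin-like gene, stood at 47.2, 36.6 and 75.5 CPM against 0 in dermis (at least 967-fold). Myh14, a nonmuscle myosin gene of epithelia, and Kcnh7, a potassium channel gene that overlaps another annotated gene, stood at 123, 50.5 and 52.8 CPM and 39.5, 58.6 and 62.6 CPM, at least 1539-fold and at least 1039-fold above dermis.

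Dermal matrix genes were lower in KO epidermis, 27 of 30 tested and 0 higher (median -3.10). Col3a1, which encodes the collagen III chain, had 584, 894 and 844 CPM in KO and 15153, 9877 and 12234 CPM in dermis (log2 fold change -4.07 ± 0.24, adjusted p 8.94e-06), and at 78, 373 and 76.1 CPM in Het epidermis. Mfap2, a microfibril gene, stood at 20.3, 27.7 and 19.8 CPM against 431, 423 and 466 CPM (log2 fold change -4.34 ± 0.21, adjusted p 5.88e-06). Dpt, the dermatopontin gene, stood at 0.149, 1.17 and 0 CPM against 105, 124 and 96.3 CPM (log2 fold change -7.72 ± 0.60, adjusted p 3.57e-05). The gap to dermis was smaller for Col5a1 (262, 329 and 289.8 CPM against 2514, 1622 and 1758 CPM, log2 fold change -2.80 ± 0.20, adjusted p 1.9e-05) and for Fbln1, a fibulin gene (39.6, 56.4 and 67.5 CPM against 650.4, 487 and 490.1 CPM, log2 fold change -3.39 ± 0.22, adjusted p 1.29e-05). Col12a1, Mfap5 and Vcan were the members not called. The summed level of the list was 4299 to 7431 CPM in the KO libraries and 44106 to 63038 CPM in dermis, with KO replicate 2 the highest of the KO libraries for Col1a1, Col1a2, Col6a3, Lum and Dcn. Whether dermal cells or free RNA in the sort contribute to the KO levels was not tested.

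Surface and cytoskeletal genes of mesenchyme were lower as well, 11 of 14 tested (15 listed) and 0 higher (median -3.54). Vim, the vimentin gene, stood at 167, 248 and 147 CPM in KO, 1864, 1684 and 1568 CPM in dermis and 184, 226 and 280.1 CPM in Het epidermis (-3.25 ± 0.24, adjusted p 2.12e-05 over dermis). Thy1, the fibroblast surface marker gene, had 4 counts over the KO libraries and stood at 179, 219 and 273 CPM in dermis (log2 fold change -10.01 ± 0.55, adjusted p 8.89e-06). Acta2, the smooth muscle actin gene, stood at 11.9, 11.8 and 7.73 CPM against 63.7, 88.8 and 94 CPM (log2 fold change -3.02 ± 0.31, adjusted p 0.000101). Nt5e, the CD73 gene, stood at 0.747, 2.99 and 0.258 CPM in KO, 225, 249 and 249.7 CPM in dermis and 15.8, 34.7 and 24 CPM in Het epidermis (-7.36 ± 0.52, adjusted p 3.26e-05 over dermis). Cdh2, the N-cadherin gene, was not called (22.3, 34.3 and 13.4 CPM against 41.3, 14.1 and 36.4 CPM, log2 fold change -0.43 ± 0.48, adjusted p 0.523), and its libraries overlapped.

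Transcription factors of dermal mesenchyme and of epithelial-mesenchymal transition divided 14 lower, 3 higher and 8 not called of 25 tested (28 listed, median -3.03). Twist2, a basic helix-loop-helix gene of dermis, stood at 3.14, 4.42 and 0 CPM in KO and 429, 393 and 380.0 CPM in dermis (log2 fold change -7.20 ± 0.59, adjusted p 5.87e-05), and Twist1 at 34.8, 58.1 and 11.1 CPM against 363, 329 and 326 CPM (log2 fold change -3.32 ± 0.50, adjusted p 0.00131). Tcf4, an E-protein gene, stood at 116, 171 and 79.6 CPM against 747, 594 and 606 CPM (log2 fold change -2.46 ± 0.28, adjusted p 0.000236). Tbx15, a T-box gene of dermis, stood at 4.48, 29.4 and 0 CPM against 479.9, 394 and 437 CPM (log2 fold change -5.22 ± 0.99, adjusted p 0.00403), lost without KO replicate 1 (adjusted p 0.052), and KO replicate 2 held most of its KO counts. The 3 higher members were Lef1, Msx1 (lost without KO replicate 1, adjusted p 0.0585) and Foxc1, of which Lef1, a Wnt effector gene that embryonic ectoderm also makes, stood at 144, 179 and 124 CPM against 61, 45.5 and 37.9 CPM (log2 fold change 1.58 ± 0.23, adjusted p 0.000864). These 3 were named because they went against the list.

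Signals, receptors and antagonists of the dermal side were lower for 12 of 25 tested, with 0 higher and 13 not called (median -2.02). Pdgfrb, the partner of the receptor used in the sort, stood at 10.8, 22.7 and 24.7 CPM in KO and 384, 315 and 284 CPM in dermis (log2 fold change -4.16 ± 0.31, adjusted p 2.53e-05). Fgfr1 stood at 80.5, 79.9 and 75 CPM in KO, 534, 501 and 426 CPM in dermis and 28.2, 49.2 and 32.3 CPM in Het epidermis (-2.70 ± 0.16, adjusted p 8.94e-06 over dermis). Ror2, a receptor gene for Wnt5a, stood at 6.43, 15.3 and 11.6 CPM against 196, 154 and 135 CPM (log2 fold change -3.92 ± 0.33, adjusted p 3.87e-05), and Fzd1 at 17.8, 24.4 and 14.9 CPM against 168, 117 and 118 CPM (log2 fold change -2.86 ± 0.26, adjusted p 6.14e-05). Fgf7, which overlaps another annotated gene, and Fgf10, the dermal ligand genes of Fgfr2, were not called (1.05, 8.05 and 0 CPM and 0, 9.09 and 0 CPM in KO against 15.7, 19 and 16.9 CPM and 15.2, 13.9 and 11.8 CPM).

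The 12 genes with the largest fall from dermis to KO epidermis included Thy1, Dpt and Nt5e, described above. Crabp1, a retinoic acid binding protein gene of dermis, stood at 2.09, 12.3 and 3.61 CPM in KO and 1252, 1597 and 1560.4 CPM in dermis (log2 fold change -7.93 ± 0.63, adjusted p 5.36e-05). Abca8a, a transporter gene, had 1 count in KO against 94.2, 92.9 and 82.5 CPM in dermis (1611-fold, 95% counting interval 289 to 63640.5, adjusted p 5.88e-06). C1qtnf2, a secreted C1q-like gene, had 2 counts in KO against 67.4, 93.8 and 79.3 CPM (719-fold, 95% counting interval 199 to 5939). Calb1, Runx3, Epha8 and Scube2 had 5 to 10 counts over the KO libraries and log2 fold changes from -8.07 to -7.29. Hba-x and Hbb-y, the embryonic globin genes of primitive red cells, were also among the 12. Hbb-y stood at 2.39, 1.43 and 12.6 CPM in KO and at 189.6, 936 and 1266 CPM in dermis (log2 fold change -7.48 ± 1.01, adjusted p 0.000789), with dermis replicate 1 the lowest of the 3. With limma voom neither globin gene was called (adjusted p 0.123 for Hba-x and 0.206 for Hbb-y).

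Markers of further cell types were read from the same test. Erythroid genes were lower in KO for 3 of 5 tested (10 in the files), and their summed level was 3.29 to 12.6 CPM in KO and 234 to 1504 CPM in dermis. Hbb-bh1, another embryonic globin gene, had 0 counts in every KO library. Macrophage and leukocyte genes were lower for 5 of 10 tested, with summed levels of 5.92 to 43.0 CPM in KO and 53.8 to 101 CPM in dermis, and Tyrobp, an adaptor gene of myeloid cells, had 0 counts in every KO library. C1qb, a complement gene of macrophages, stood at 0, 0.26 and 0 CPM in KO and 7.21, 5.63 and 10.9 CPM in dermis (adjusted p 0.00843), and Lyz2, the lysozyme gene, at 0, 0.779 and 0 CPM against 7.93, 12.8 and 17.6 CPM (log2 fold change -5.45 ± 1.28, adjusted p 0.00948). Relative to their totals, the KO libraries thus held far fewer reads of embryonic globin genes and of C1qb, Lyz2 and Tyrobp than the dermal libraries. Of the macrophage and leukocyte list, 5 of the 10 tested were not called and 1 had a value above 0. The number lower in that list was 1 with a filter at a mean of at least 5 CPM, which tests fewer genes. With limma voom 1 member of that list was called higher. The part of blood and macrophage reads in the other differences was not tested. Tyrobp, Coro1a and C1qa were also lower and each was lost without any 1 of 2 to 4 libraries (adjusted p up to 0.0872).

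Endothelium gave 0 calls of 9 tested and skeletal muscle 0 of 5 with edgeR, and 0 at an unadjusted p under 0.05 in either list. DESeq2 and limma voom also gave 0 calls in both, and without KO replicate 3 endothelium gave 1 lower. Their summed levels were 25.1 to 31.9 CPM in KO against 35.8 to 44.6 in dermis for endothelium, and 6.44 to 12.7 against 7.68 to 15.7 for muscle. Melanocyte and neural crest genes gave 1 call of 5, Erbb3, which is also in the epithelial surface list, while Tyr, Tyrp1 and Sox10 were too low to test. Neural genes gave 3 higher, 2 lower and 4 not called of 9 tested. Of these, Nefm (higher) was lost without any 1 of 3 libraries (adjusted p up to 0.102) and Stmn2 (lower) without any 1 of 5 (adjusted p up to 0.114). Map2, a microtubule gene, stood at 75.3, 118 and 44.6 CPM in KO, 14.9, 18.2 and 18.6 CPM in dermis and 1.86, 12.5 and 15.6 CPM in Het epidermis (2.15 ± 0.37, adjusted p 0.00197 over dermis), and Gap43, a growth cone gene, was lower in KO (0.149, 3.9 and 0 CPM against 109, 152 and 143 CPM, log2 fold change -6.47 ± 0.83, adjusted p 0.000599). Every KO library was above every library of both other groups for Map2. Dcx, a neuronal migration gene, stood at 8.37, 7.53 and 9.02 CPM against 0 in dermis (at least 162-fold, adjusted p 0.00332). Cartilage genes gave 2 higher of 5 tested, and the endoderm list had 1 gene tested, Gata6, which was not called (adjusted p 0.358). Without KO replicate 3, 2 members of the endoderm list were called higher. Sox6, on the cartilage list but also made in skin epithelium, stood at 44.2, 43.6 and 82.9 CPM in KO, 0.499, 0.163 and 0.856 CPM in dermis and 146, 194 and 199 CPM in Het epidermis (6.60 ± 0.58, adjusted p 4.89e-05 over dermis), and Col2a1, the cartilage collagen gene, was called weakly (log2 fold change 2.56 ± 0.84, adjusted p 0.0432) and lost without KO replicate 1 or 2 or dermis replicate 1 or 2 (adjusted p up to 0.154).

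Of the genes of the early embryo, 4 were higher and 2 lower than dermis of 8 tested (15 listed). The 2 lower, Igf2bp2 and Hmga2, became 0 with RLE size factors and with raw library totals, and each was lost without any 1 of 4 libraries (adjusted p up to 0.208). Dnmt3a, among the higher, was lost without any 1 of 5 (adjusted p up to 0.113). Igf2bp1, an oncofetal RNA-binding protein gene, stood at 359, 333 and 417 CPM in KO and 139, 119.5 and 113 CPM in dermis (log2 fold change 1.51 ± 0.15, adjusted p 0.000102), and Igf2bp3 at 282, 277 and 263 CPM against 129, 109 and 89 CPM (log2 fold change 1.27 ± 0.17, adjusted p 0.000483). Dnmt3b, a DNA methyltransferase gene, stood at 44.7, 44.8 and 59.2 CPM against 13.4, 11.6 and 8.05 CPM (log2 fold change 2.10 ± 0.31, adjusted p 0.000896). Neither Igf2bp gene nor Dnmt3b was called between KO and Het epidermis (adjusted p 0.601, 0.742 and 0.958). Lin28a and Sall4 were too low to test, with 19 and 67 counts over the KO libraries and 0 in dermis.

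Cell cycle genes showed no common direction, with 1 higher, 5 lower and 14 not called of 20 tested (median -0.25). Mki67, the proliferation marker gene, stood at 1482, 1842 and 1396 CPM in KO, 487, 423 and 510.2 CPM in dermis and 1748, 2225 and 1872 CPM in Het epidermis (1.67 ± 0.18, adjusted p 0.000141 over dermis). Pcna, the replication clamp gene, stood at 145, 139.8 and 120.5 CPM against 241, 452 and 350.0 CPM (log2 fold change -1.44 ± 0.25, adjusted p 0.00204) and Bub1, a spindle checkpoint gene, at 38.4, 46.9 and 34.8 CPM against 90.7, 148 and 101 CPM (log2 fold change -1.57 ± 0.26, adjusted p 0.00172). With raw library totals 5 members of the list were higher and 3 lower, so its direction depends on the scaling.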

How the data were processed

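Counts of reads per gene symbol were deposited by the authors for each library. Per the submitters' processing notes, TopHat2 and Bowtie2 were used with HTSeq on mm10, with versions and the strand setting not given in the sources used here. Per the labels' protocols, epidermal libraries were made with SMARTer and dermal ones with NEBNext directional kits. The 5 summary lines of each file, 20.2% to 62.6% of its total in the 6 libraries compared, were left out. Groups came from the labels. Counts were tested with edgeR 4.0.16 in R 4.3.3 (filterByExpr, TMM, robust quasi-likelihood, two-sided), with Benjamini-Hochberg adjustment over all genes tested and a threshold of 0.05. KO against dermis used its 6 libraries, Het epidermis against dermis its 6, and KO against Het epidermis the 9 epidermal libraries, 3 of them from embryonic day 9. A gene at 0 counts in a group is given a bound at 3 counts over its 3 libraries. A gene with 1 to 3 counts is given a ratio with an exact 95% interval. Bounds and intervals cover counting error only, since no molecular identifiers are named.

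Named by rule were Trp63, Pdgfra, the 5 markers, and the 12 higher and 12 lower called genes with the largest fitted change. The last had to have a mean of at least 50 CPM in a group, no overlap of libraries, no clone name and a poly(A) tail. Up to 4 members of each of 23 lists with the smallest adjusted p were added. The members and lists were chosen with earlier results of these data known. Positions and promoters are RefSeq's for GRCm38.p6. Of 23432 symbols, 21569 matched by symbol and 1688 by synonym. Alternatives were DESeq2 1.42.0, limma 3.58.1 voom, RLE factors, other filters, a 2-fold test, a replicate block, all 12 libraries, no RNAs without poly(A) tails and each library left out. Raw library totals and list counts were added after seeing the data. Replicates of a group differed by more than counting noise (chi-square per degree of freedom 15.4 to 26.0 in KO and 103 to 227 in dermis).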

Additional observations from a re-analysis of the deposited data

Results flagged for a closer look

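For 14 of the genes named by rule, KO epidermis and Het epidermis, each set against the same Het dermis, differed in level. No KO dermis was analysed here, and the test is KO against Het epidermis (edgeR's quasi-likelihood test, Benjamini-Hochberg adjusted p).

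Lower in KO than in Het epidermis were 9 of them. Trp63, the targeted gene, was lower by a log2 fold change of -4.54 ± 0.28, adjusted p 1.54e-06. The desmosomal gene Dsp had -1.75 ± 0.15, adjusted p 1.53e-05. The anchoring fibril gene Col7a1 had -2.99 ± 0.41, adjusted p 0.00108. The kinase gene Ripk4 had -1.42 ± 0.24, adjusted p 0.00416. These 4 kept their call whichever of the 9 epidermal libraries was left out.

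The other lower genes lost their call without 1 of several libraries. Nt5e had -4.12 ± 0.97, adjusted p 0.0404 (up to 0.172 with a library left out). Sfn had -1.75 ± 0.36, adjusted p 0.0302 (up to 0.126). Sox6, a transcription factor gene, had -1.64 ± 0.35, adjusted p 0.0294 (up to 0.144). The matrix gene Fbln1 had -1.17 ± 0.24, adjusted p 0.019 (up to 0.102). The ligand gene Pdgfa had -1.07 ± 0.25, adjusted p 0.0381 (up to 0.143).

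Higher in KO than in Het epidermis were 5. The adhesion gene Epcam had 1.19 ± 0.14, adjusted p 0.00031, and the claudin gene Cldn8 had 2.05 ± 0.37, adjusted p 0.00745. Both kept their call whichever of the 9 was left out. The antagonist gene Sostdc1 had 0.86 ± 0.19, adjusted p 0.0257 (up to 0.143 with a library left out). The receptor gene Fgfr1 had 1.12 ± 0.26, adjusted p 0.0368 (up to 0.114). The microtubule gene Map2 had 2.99 ± 0.66, adjusted p 0.0408 (up to 0.15).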

How the results depend on the processing

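The number of genes called in KO epidermis against dermis (4674) ranged from 3477 to 5713 with a library left out, 1638 to 2578 of them higher and 1706 to 3135 lower. Tested against a 2-fold change it was 1896 (942 higher, 954 lower), where fewer genes can pass. With raw library totals, chosen after seeing the data, 3422 were higher and 1319 lower. The 287 genes called between KO and Het epidermis became 824 with DESeq2, 656 with limma voom and 57 against a 2-fold change, and 182 to 348 with a library left out (182 without KO replicate 1). For Het epidermis against dermis, 4504 became 1797 against a 2-fold change and 2934 to 5269 with a library left out (2934 without dermis replicate 3). The causes were not tested. Of 1688 alternative values for the 108 named genes over dermis, 1637 stayed on the same side of the threshold, 46 lost the call, 5 gained it and 0 changed direction. Of 1642 between KO and Het epidermis, 1535 stayed, 64 lost, 43 gained and 0 changed direction. Whether the replicate numbers pair the samples is not settled here. Deviations from the group means had correlations of 0.0049, -0.0697 and -0.0203 between same-numbered KO and dermal libraries. Different-numbered ones had -0.0226 to 0.0432. With 3 libraries in each group, of different tissue and preparation, these values cannot exclude a shared litter or batch. With a replicate block 3579 genes were called over dermis (1714 higher, 1865 lower), 286 between KO and Het epidermis and 3464 in Het epidermis over dermis. Depth limits genes at a few counts in KO replicate 3, the shallowest library. Values at or near 0 in it were not confined to such genes. Dsc3 stood at 57.4, 15.8 and 0 CPM in KO, Klf4 at 61.6, 51.4 and 0.773 CPM and Col6a1 at 21.7, 57.8 and 0 CPM. Others were even, such as Grhl2 at 175, 174 and 168 CPM. E13 Het replicate 1 had fewer genes detected (10765) than KO replicate 3 (11275). Cldn3 stood at 0, 6.92 and 82.1 CPM in Het epidermis. The cause of these low values was not tested.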
